A study of Mus musculus with 4 samples.

Results

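The genes described here carry glucose through the cell: 2 glucose transporters, 9 genes of upper glycolysis, 5 of lower glycolysis, 4 of lactate formation and transport, 7 of the pentose phosphate pathway (3 oxidative, 4 non-oxidative) and 7 of pyruvate entry into mitochondria. They were taken by symbol from the deposited count table, where 34 of 34 were present among 14934 genes, and 34 of 34 passed the filter on low counts that left 11563 genes for testing. The samples were JAML-positive CD8 T cells (JAML+) and JAML-negative CD8 T cells (JAML-), both of WT genotype and both sorted by flow cytometry out of hepatocellular carcinoma in mice, with 2 libraries, replicates A and B, in each group. RNA was extracted with an RNeasy kit and made into libraries with a SMARTER kit. JAML is a surface receptor of the immunoglobulin superfamily, and the comparison asks how the CD8 T cells of these tumours differ with its presence. The sources used here give neither the age and strain of the mice, nor how the tumours arose, nor whether A and B came from separate animals, so p-values reflect the spread among 4 libraries, which may be technical.

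Glucose enters T cells through facilitative transporters, is phosphorylated by hexokinase and is split into triose phosphates, whose oxidation yields ATP and pyruvate. Activated T cells are known for reducing much of that pyruvate to lactate, a pattern called aerobic glycolysis. The pentose phosphate pathway branches off after the hexokinase step and supplies NADPH and ribose, and the pyruvate dehydrogenase complex turns pyruvate into acetyl-CoA in mitochondria.

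Library totals were 27717149 and 30569728 counts in libraries A and B of JAML-positive cells, and 27819178 and 27530187 counts in libraries A and B of JAML-negative cells. JAML-positive replicate A stood apart, with 12.7% of its counts in 84 ribosomal protein genes, against 7.79% to 8.71% in the other 3 libraries. Jaml itself was at 138 and 147 CPM in JAML-positive libraries A and B and at 131 and 117 CPM in JAML-negative libraries A and B (log2 fold change 0.20, SE 0.26, edgeR adjusted p = 0.881). The Jaml transcript thus did not pass the test between the sorted groups, which are named here by their labels. Cd8a was at 1044 and 1052 CPM in JAML-positive cells, against 1024 and 1113 CPM in JAML-negative cells. CPM values are read counts scaled to a common library size with TMM factors, and fold changes are JAML-positive over JAML-negative from edgeR's quasi-likelihood test.

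Hexokinase 2, the enzymes from aldolase to pyruvate kinase, and lactate dehydrogenase A had higher values in JAML-positive cells, while the phosphofructokinases and the oxidative pentose phosphate genes overlapped between groups. For 15 of the 34 genes the 2 JAML-positive values exceeded both JAML-negative ones, and for 5 they were below them, where the same held for 20.3% and 18.2% of all genes tested. No gene of the 34 passed the test after Benjamini-Hochberg adjustment over all genes (edgeR adjusted p between 0.609 and 0.989), as was so for 0 of 11563 genes (0%). An unadjusted p under 0.05 was reached by 8 higher members and 0 lower, against 4.32% higher and 3.34% lower among all genes. The members were more abundant than most genes, with 55.9% at a mean of 100 CPM or more, against 19.5% of all genes tested. Their median SE was 0.295, against 0.559 over all genes, so shares over all genes are not a like-for-like comparison. DESeq2 on the same counts called 8 members higher and 0 lower, where it called 4.64% of all genes higher and 3.02% lower. These were Hk2, Pgk1, Ldha, Pdhb, Tpi1, Aldoa, Rpia and Pgam1, with DESeq2 adjusted p from 4.45e-06 to 0.0414. The median log2 fold change of the members was 0.27, with 23 above 0 and 11 below. Over all genes tested the median was 0.01, with 5867 above 0 and 5696 below. In bulk RNA of sorted cells, a larger share of cells that express a gene and more RNA of it per cell cannot be told apart.

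Together the 34 genes took 0.780% and 0.713% of the counts in libraries A and B of JAML-positive cells, against 0.565% and 0.580% in JAML-negative libraries A and B. In CPM, the largest difference of any role was that of lower glycolysis, which summed to 2851 and 2473 CPM in JAML-positive libraries and to 1712 and 1919 CPM in JAML-negative libraries. Upper glycolysis summed to 2468 and 1970 CPM in JAML-positive libraries, against 1557 and 1754 CPM in JAML-negative libraries. Lactate genes summed to 1134 and 897 CPM in JAML-positive libraries, against 734 and 636 CPM in JAML-negative libraries. The oxidative pentose phosphate genes overlapped, at 192 and 215 CPM in JAML-positive libraries and 206 and 159 CPM in JAML-negative libraries. Pyruvate entry genes summed to 657 and 712 CPM in JAML-positive libraries and 649 and 650 CPM in JAML-negative libraries, with JAML-positive library A close to both JAML-negative libraries.

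**Figure D1:**
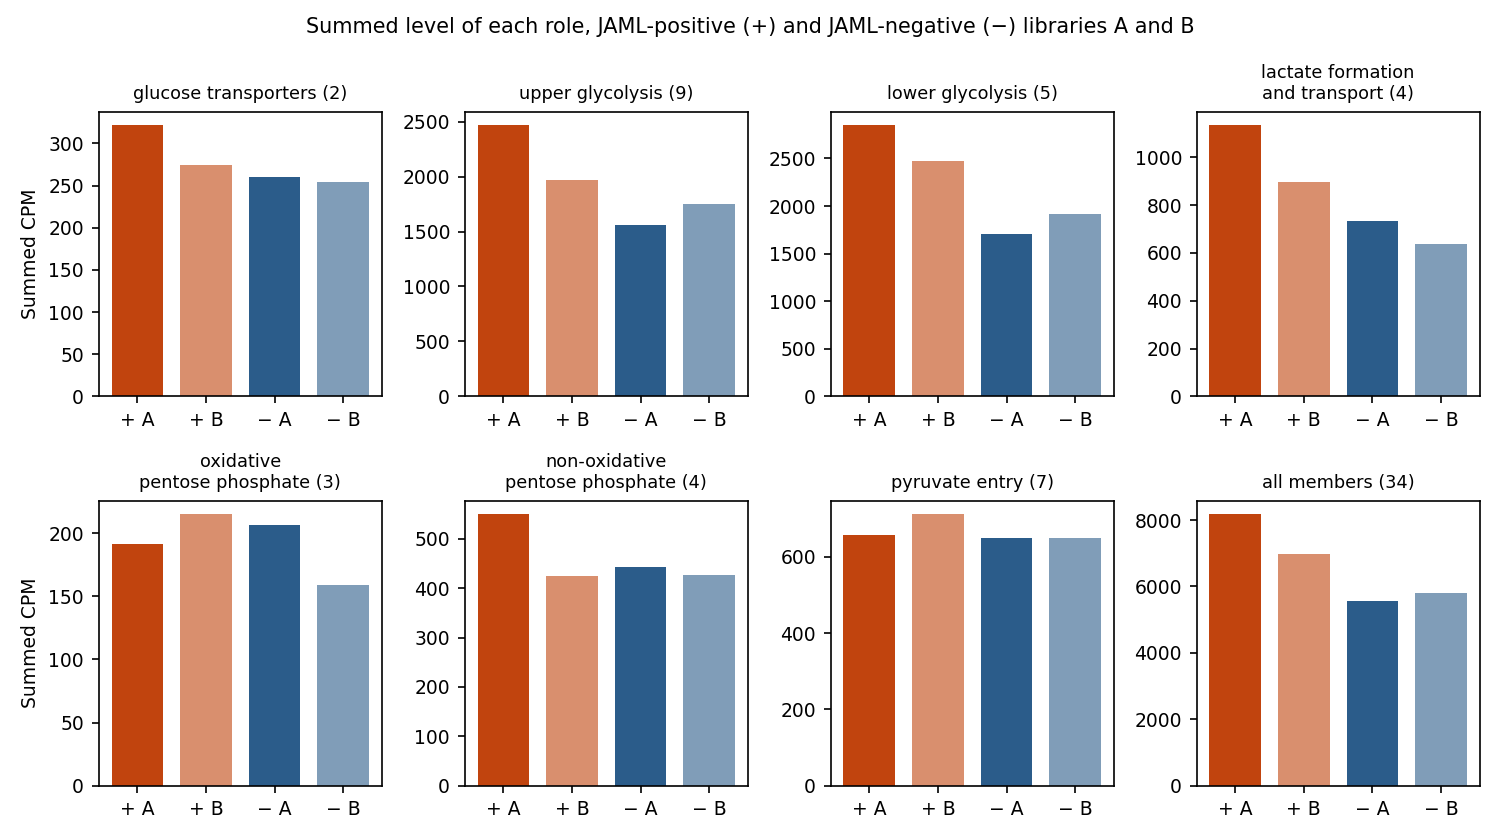
Summed CPM (vertical axes, from 0) of the genes of each role in the 4 libraries, with the number of genes in brackets; + marks JAML-positive and − marks JAML-negative libraries. Lower glycolysis stands at 2851 and 2473 CPM in JAML-positive libraries against 1712 and 1919 CPM in JAML-negative libraries, while the oxidative pentose phosphate bars overlap.

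Hk2, Pgk1 and Ldha had the smallest p-values of the 34 genes. Their promoters are shown because these genes lead the comparison and are textbook targets of the hypoxia factor HIF-1. The choice thus rests on the p-values of these same data and is no test of that factor. Each window runs from 250 bases before to 50 bases after the annotated start (RefSeq, GRCm38.p6, read on the gene's own strand). Capitals mark each match to ACGTG on either strand, the core that HIF-1 recognises, and to the E-box CACGTG, which contains that core on both strands.
Hk2, chr6:82774405-82774704, minus strand: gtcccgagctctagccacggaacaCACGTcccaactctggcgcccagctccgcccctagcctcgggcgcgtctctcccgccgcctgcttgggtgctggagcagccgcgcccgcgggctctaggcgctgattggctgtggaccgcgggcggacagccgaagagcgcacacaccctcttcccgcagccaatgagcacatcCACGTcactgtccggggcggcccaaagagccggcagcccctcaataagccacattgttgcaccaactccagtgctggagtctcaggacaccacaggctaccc
Pgk1, chrX:106186850-106187149, plus strand: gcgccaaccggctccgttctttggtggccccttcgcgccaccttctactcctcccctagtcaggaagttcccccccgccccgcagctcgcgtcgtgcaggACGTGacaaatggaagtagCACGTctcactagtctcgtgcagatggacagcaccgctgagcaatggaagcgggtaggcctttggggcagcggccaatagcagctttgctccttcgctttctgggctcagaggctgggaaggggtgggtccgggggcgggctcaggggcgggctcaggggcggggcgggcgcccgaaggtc
Ldha, chr7:46845554-46845853, plus strand: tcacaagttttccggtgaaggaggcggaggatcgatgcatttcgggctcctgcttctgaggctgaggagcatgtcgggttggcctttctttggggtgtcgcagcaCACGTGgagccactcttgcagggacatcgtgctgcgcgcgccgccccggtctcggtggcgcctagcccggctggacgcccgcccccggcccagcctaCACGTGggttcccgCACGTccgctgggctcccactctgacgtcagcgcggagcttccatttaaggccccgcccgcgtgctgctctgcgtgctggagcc
The Hk2 and Pgk1 windows hold 2 matches to ACGTG each and no E-box. The Ldha window shown holds 5, of which those inside its 2 E-boxes are counted on each strand. The table lists a second Ldha window, at a start further downstream, which holds neither motif. Windows were listed for 33 of the 34 genes, 47 in all and some of them overlapping, and for 11723 genes of the count table, 14931 in all. Counted per gene, 15 of the 33 (45.5%) hold ACGTG in at least 1 window and 4 (12.1%) hold CACGTG, against 28.0% and 10.9% of the 11723 genes. Counted per window the shares are 38.3% and 8.51% for the members, against 24.2% and 9.14% for the genes of the table. Of the other genes with an unadjusted p under 0.05 in edgeR, Aldoa, Pkm and Pdhb hold ACGTG in at least 1 window. For Pkm this is only its second window, further downstream. Tpi1 and Eno1 hold it in none. Of the remaining genes higher without overlap, Gapdh, Pgam1 and Slc16a3 hold it, and Gpi1, Rpia and Dlat do not. Slc2a3 has no window listed. Among genes whose groups overlapped, Hk1, Pfkm, Pfkfb3, Slc16a1 and G6pdx also hold it, and the others do not. Of the genes lower without overlap, Slc2a1 (log2 fold change -0.34) holds 1 match to ACGTG, and Rpe, Pdha1, Dld and Mpc1 hold none. A match describes the letters only.

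Of the 2 glucose transporters, one lay higher in JAML-positive cells and the other lower. Slc2a3, which encodes the high-affinity transporter GLUT3, was at 243 and 206 CPM in JAML-positive libraries A and B and at 163 and 165 CPM in JAML-negative libraries A and B (log2 fold change 0.45, SE 0.24, edgeR adjusted p = 0.618). Slc2a1, which encodes GLUT1, was at 79.3 and 68.2 CPM in JAML-positive cells, against 97.4 and 88.7 CPM in JAML-negative cells (-0.34, SE 0.32, edgeR adjusted p = 0.813). For neither gene did the groups overlap, and neither passed the test. The ratio of Slc2a1 to Slc2a3 within a library, which no scaling between libraries can change, was -1.61 and -1.60 on the log2 scale in JAML-positive libraries A and B, against -0.75 and -0.90 in JAML-negative libraries A and B. The difference of -0.78 had an exact two-sided permutation p = 0.333, the smallest that 2 libraries against 2 can give.

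Hexokinases trap glucose as glucose-6-phosphate, and Hk2 is the inducible form. Its counts were 1599 and 2055 in JAML-positive libraries A and B and 606 and 490 in JAML-negative libraries A and B. On the CPM scale Hk2 averaged 63.1 ± 3.70 in JAML-positive cells and 19.6 ± 2.58 in JAML-negative cells (SD, n = 2 each). The fold change was 3.22, with a 95% interval from edgeR of 1.60 to 6.47 (log2 fold change 1.69, SE 0.46, unadjusted p = 0.00330, edgeR adjusted p = 0.609). DESeq2 gave Hk2 an adjusted p of 4.45e-06. Hk1, the constitutive hexokinase, overlapped between groups, at 195 and 157 CPM in JAML-positive cells and 118 and 173 CPM in JAML-negative cells. Within libraries the log2 ratio of Hk2 to Hk1 was -1.69 and -1.26 in JAML-positive libraries A and B, against -2.46 and -3.28 in JAML-negative libraries A and B (difference 1.39, exact permutation p = 0.333). Scaled by the longest coding transcript, Hk1 was the more abundant hexokinase in all 4 libraries. Hk2 stood at 0.240 and 0.324 of the Hk1 level in JAML-positive libraries and at 0.141 and 0.0799 of it in JAML-negative libraries. These ratios depend on the length used, since over the 4 libraries Hk2 averaged 16.8 TPM and Hk1 84.6 TPM by the longest transcript, but 21.1 TPM and 397 TPM by the median transcript length.

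**Figure D2:**
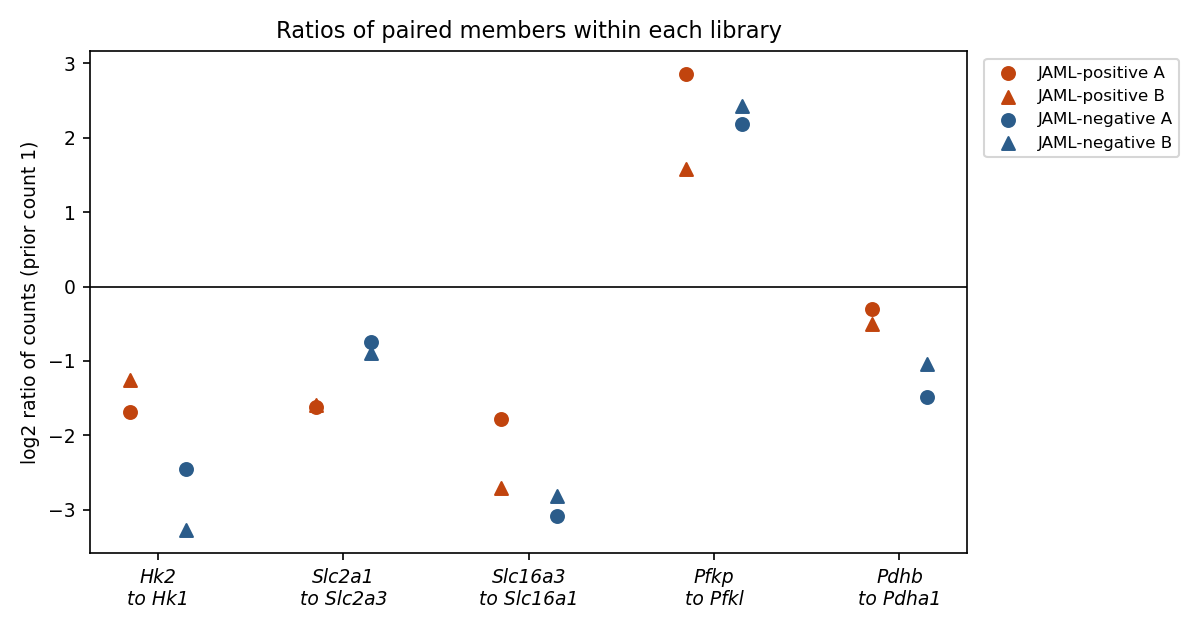
Log2 ratio of the counts of paired genes within each library (vertical axis, prior count 1), with JAML-positive libraries on the left of each pair and JAML-negative libraries on the right. The groups do not overlap for Hk2 to Hk1, Slc2a1 to Slc2a3, Slc16a3 to Slc16a1 and Pdhb to Pdha1, and overlap for Pfkp to Pfkl.

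Between hexokinase and aldolase the differences were small or the groups overlapped. Gpi1, glucose-6-phosphate isomerase, averaged 539 ± 33.5 CPM in JAML-positive cells and 488 ± 16.2 CPM in JAML-negative cells (SD, n = 2 each), with no overlap and a log2 fold change of 0.14 (SE 0.20). Pfkp, the platelet-type phosphofructokinase, lay at 288 and 236 CPM in JAML-positive cells and at 217 and 291 CPM in JAML-negative cells (0.04, SE 0.24). Pfkl, the liver-type subunit, had its lowest and its highest value in the 2 JAML-positive libraries, 39.5 and 79.0 CPM in replicates A and B, around 47.5 and 54.2 CPM in JAML-negative libraries A and B. Pfkfb3, which makes the phosphofructokinase activator fructose-2,6-bisphosphate, averaged 100 ± 17.8 CPM in JAML-positive cells and 80.7 ± 16.7 CPM in JAML-negative cells (0.32, SE 0.32). The intervals of these 4 genes together spanned folds of 0.623 to 2.25, the bounds being those of Pfkl.

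Aldoa and Tpi1, which cleave fructose-1,6-bisphosphate and interconvert its triose products, had higher values. Aldoa was at 864 and 563 CPM in JAML-positive libraries A and B and at 399 and 456 CPM in JAML-negative libraries A and B (log2 fold change 0.74, SE 0.24, unadjusted p = 0.00926). Tpi1 was at 361 and 242 CPM in JAML-positive cells, against 185 and 179 CPM in JAML-negative cells (0.72, SE 0.25, unadjusted p = 0.0147). JAML-positive replicate A was the highest library for both genes, and without it their log2 fold changes were 0.40 and 0.41.

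In lower glycolysis, 5 of 5 genes were higher in JAML-positive cells without overlap, as were 20.3% of all genes tested. All 5 share much of their sequence with other genes, as given below, so their counts depend on how reads with several matches were treated. Pgk1, the first enzyme of the pathway to make ATP, was at 685 and 623 CPM in JAML-positive libraries A and B and at 352 and 438 CPM in JAML-negative libraries A and B. The gene had a log2 fold change of 0.73 (SE 0.21, unadjusted p = 0.00474, edgeR adjusted p = 0.609), a fold of 1.65 with an interval of 1.20 to 2.27. Eno1, enolase, was at 749 and 668 CPM in JAML-positive cells and 403 and 549 CPM in JAML-negative cells (0.57, SE 0.22, unadjusted p = 0.0221). Pkm, pyruvate kinase, was the most abundant member in CPM, at 1202 and 969 CPM in JAML-positive cells, against 786 and 782 CPM in JAML-negative cells (0.47, SE 0.20, unadjusted p = 0.0359). Pgam1, phosphoglycerate mutase, averaged 101 ± 3.94 CPM in JAML-positive cells and 66.7 ± 3.09 CPM in JAML-negative cells (0.60, SE 0.32). Gapdh, the triose phosphate dehydrogenase often used as a reference gene, was at 111 and 114 CPM in JAML-positive cells and 101 and 85.6 CPM in JAML-negative cells (0.27, SE 0.29). Of these 5 genes, 3 had an unadjusted p under 0.05 in edgeR and 0 passed after adjustment, while DESeq2 called Pgk1 (adjusted p = 0.00179) and Pgam1 (adjusted p = 0.0414).

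**Figure D3:**
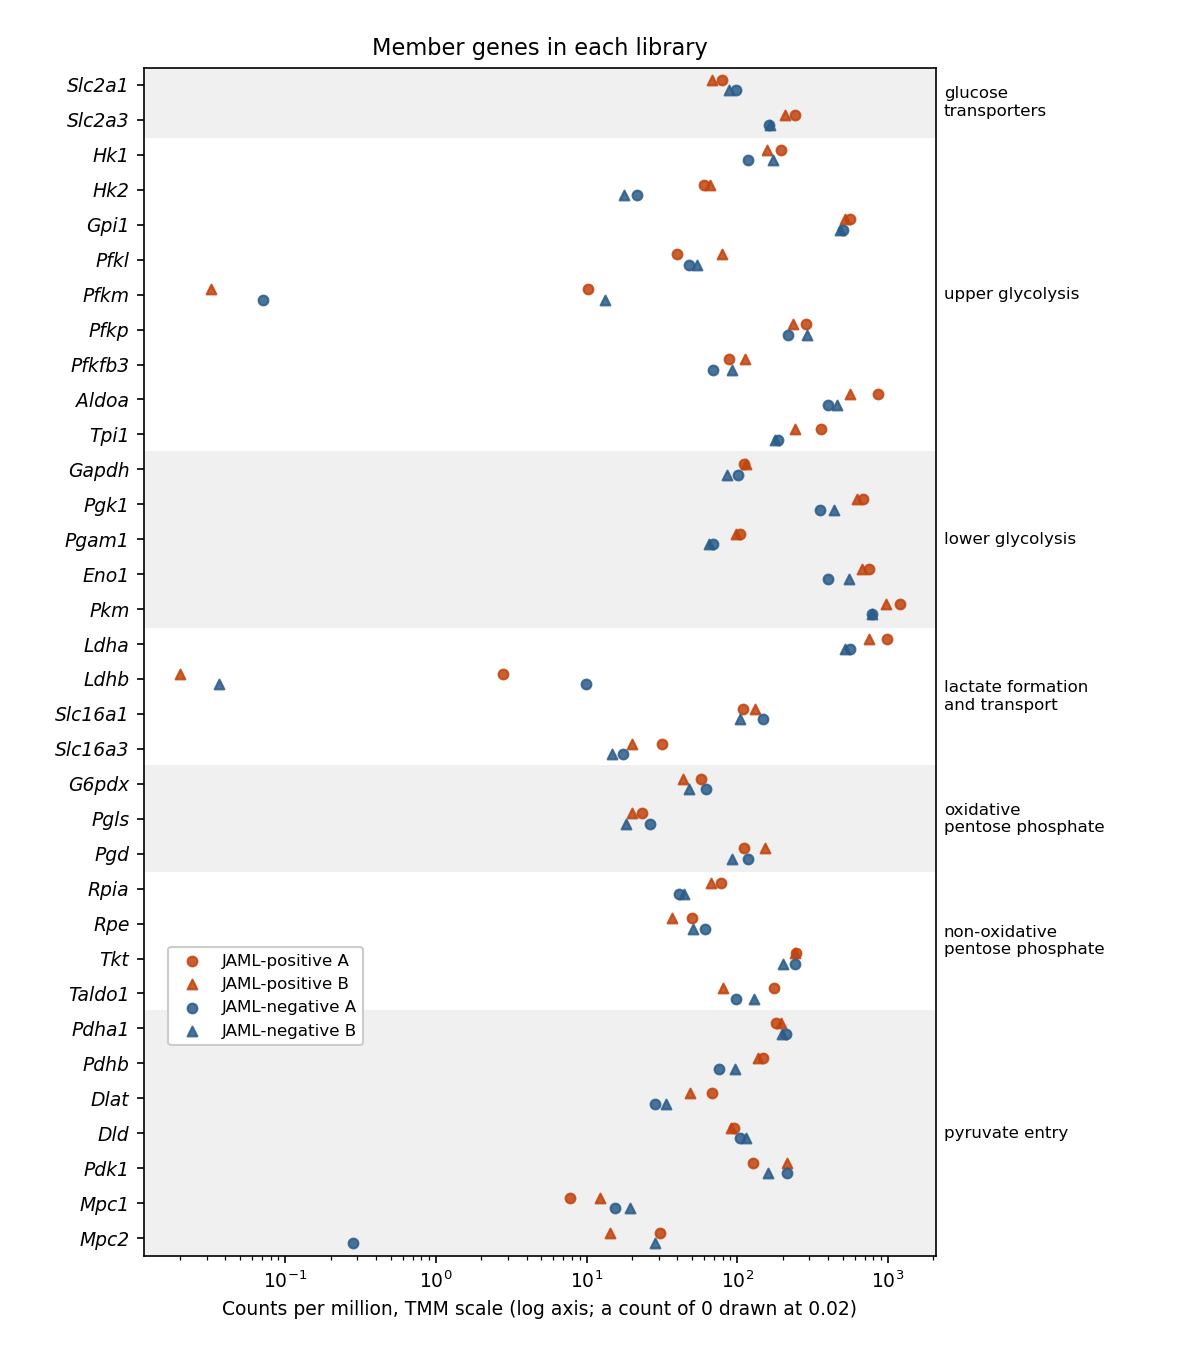
CPM (horizontal log axis, TMM scale) of the 34 genes in each library, grouped by role; red marks JAML-positive and blue JAML-negative libraries, circles replicate A and triangles replicate B, with a count of 0 drawn near the left edge. Red lies to the right of blue for all 5 genes of lower glycolysis, and 3 genes (Pfkm, Ldhb, Mpc2) spread widely within a group.

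Lactate dehydrogenase A reduces pyruvate to lactate. Ldha was at 990 and 746 CPM in JAML-positive libraries A and B and at 559 and 517 CPM in JAML-negative libraries A and B. The gene had a log2 fold change of 0.69 (SE 0.21, unadjusted p = 0.00696, edgeR adjusted p = 0.609), a fold of 1.61 with an interval of 1.17 to 2.22. Scaled by its longest coding transcript, Ldha was the most abundant of the 34 genes in JAML-positive cells, at rank 134 of all genes against rank 189 in JAML-negative cells. Ldhb, the subunit that favours the reverse reaction, had 74 and 0 counts in libraries A and B of JAML-positive cells and 280 and 1 counts in libraries A and B of JAML-negative cells, so no fold can be read from it. Slc16a3, the lactate exporter MCT4, was at 31.7 and 20.0 CPM in JAML-positive cells and 17.3 and 14.8 CPM in JAML-negative cells (0.67, SE 0.63). Slc16a1, the lactate and pyruvate transporter MCT1, overlapped between groups, at 110 and 132 CPM in JAML-positive cells and 147 and 104 CPM in JAML-negative cells. The log2 ratio of Slc16a3 to Slc16a1 was -1.79 and -2.71 in JAML-positive libraries A and B, against -3.08 and -2.81 in JAML-negative libraries A and B (difference 0.70, exact permutation p = 0.333). Without JAML-positive replicate A the difference was 0.23, and without JAML-positive replicate B it was 1.16.

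In the pentose phosphate pathway 1 of 7 genes was higher without overlap and 1 was lower. Among all genes tested, 20.3% were higher and 18.2% lower without overlap. Rpia, the ribose-5-phosphate isomerase, was at 78.1 and 67.0 CPM in JAML-positive libraries A and B and at 41.0 and 44.6 CPM in JAML-negative libraries A and B (log2 fold change 0.76, SE 0.38, edgeR adjusted p = 0.609). Rpe, the epimerase that makes xylulose-5-phosphate from ribulose-5-phosphate, the substrate Rpia shares, lay the other way, at 50.4 and 36.8 CPM in JAML-positive cells, against 61.1 and 51.1 CPM in JAML-negative cells (-0.38, SE 0.41). For the NADPH-forming branch the groups overlapped in 3 of 3 genes. G6pdx, glucose-6-phosphate dehydrogenase and the entry enzyme, was at 57.8 and 43.4 CPM in JAML-positive cells and 61.9 and 47.6 CPM in JAML-negative cells (-0.13, SE 0.40). Pgd, 6-phosphogluconate dehydrogenase, was at 111 and 152 CPM in JAML-positive cells and 118 and 92.9 CPM in JAML-negative cells (0.32, SE 0.30). Pgls, the lactonase between them, averaged 21.6 ± 2.26 CPM in JAML-positive cells and 22.4 ± 5.75 CPM in JAML-negative cells. The carbon-shuffling enzymes Tkt and Taldo1 overlapped between groups, Tkt at 0.13 (SE 0.23) and Taldo1 at 0.15 (SE 0.36) on the log2 scale. None of these 7 genes had an unadjusted p under 0.05 in edgeR, while DESeq2 called Rpia (adjusted p = 0.0397).

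At pyruvate entry the subunits of one complex did not share a direction. Pdhb, the beta subunit of the E1 enzyme of the pyruvate dehydrogenase complex, was at 147 and 137 CPM in JAML-positive libraries A and B and at 75.9 and 96.5 CPM in JAML-negative libraries A and B (log2 fold change 0.72, SE 0.29, unadjusted p = 0.0279, edgeR adjusted p = 0.609). Pdha1, the alpha subunit of the same enzyme, was at 182 and 195 CPM in JAML-positive cells, against 211 and 199 CPM in JAML-negative cells (-0.12, SE 0.23). The log2 ratio of Pdhb to Pdha1 was -0.30 and -0.51 in JAML-positive libraries A and B and -1.48 and -1.04 in JAML-negative libraries A and B (difference 0.85, exact permutation p = 0.333). Dlat, the E2 subunit that carries the acetyl group, was at 67.6 and 48.5 CPM in JAML-positive cells and 28.6 and 33.9 CPM in JAML-negative cells (0.89, SE 0.44), with no overlap. Dld, the E3 subunit, which other dehydrogenase complexes also use, averaged 93.3 ± 3.37 CPM in JAML-positive cells and 109 ± 6.50 CPM in JAML-negative cells (-0.22, SE 0.29). Pdk1, a kinase that switches the complex off, ranged widely in both groups, at 127 and 214 CPM in JAML-positive cells and 213 and 160 CPM in JAML-negative cells (-0.12, SE 0.29). Mpc1, a subunit of the mitochondrial pyruvate carrier, was at 7.72 and 12.2 CPM in JAML-positive cells, against 15.5 and 19.5 CPM in JAML-negative cells (-0.79, SE 0.77).

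**Figure D4:**
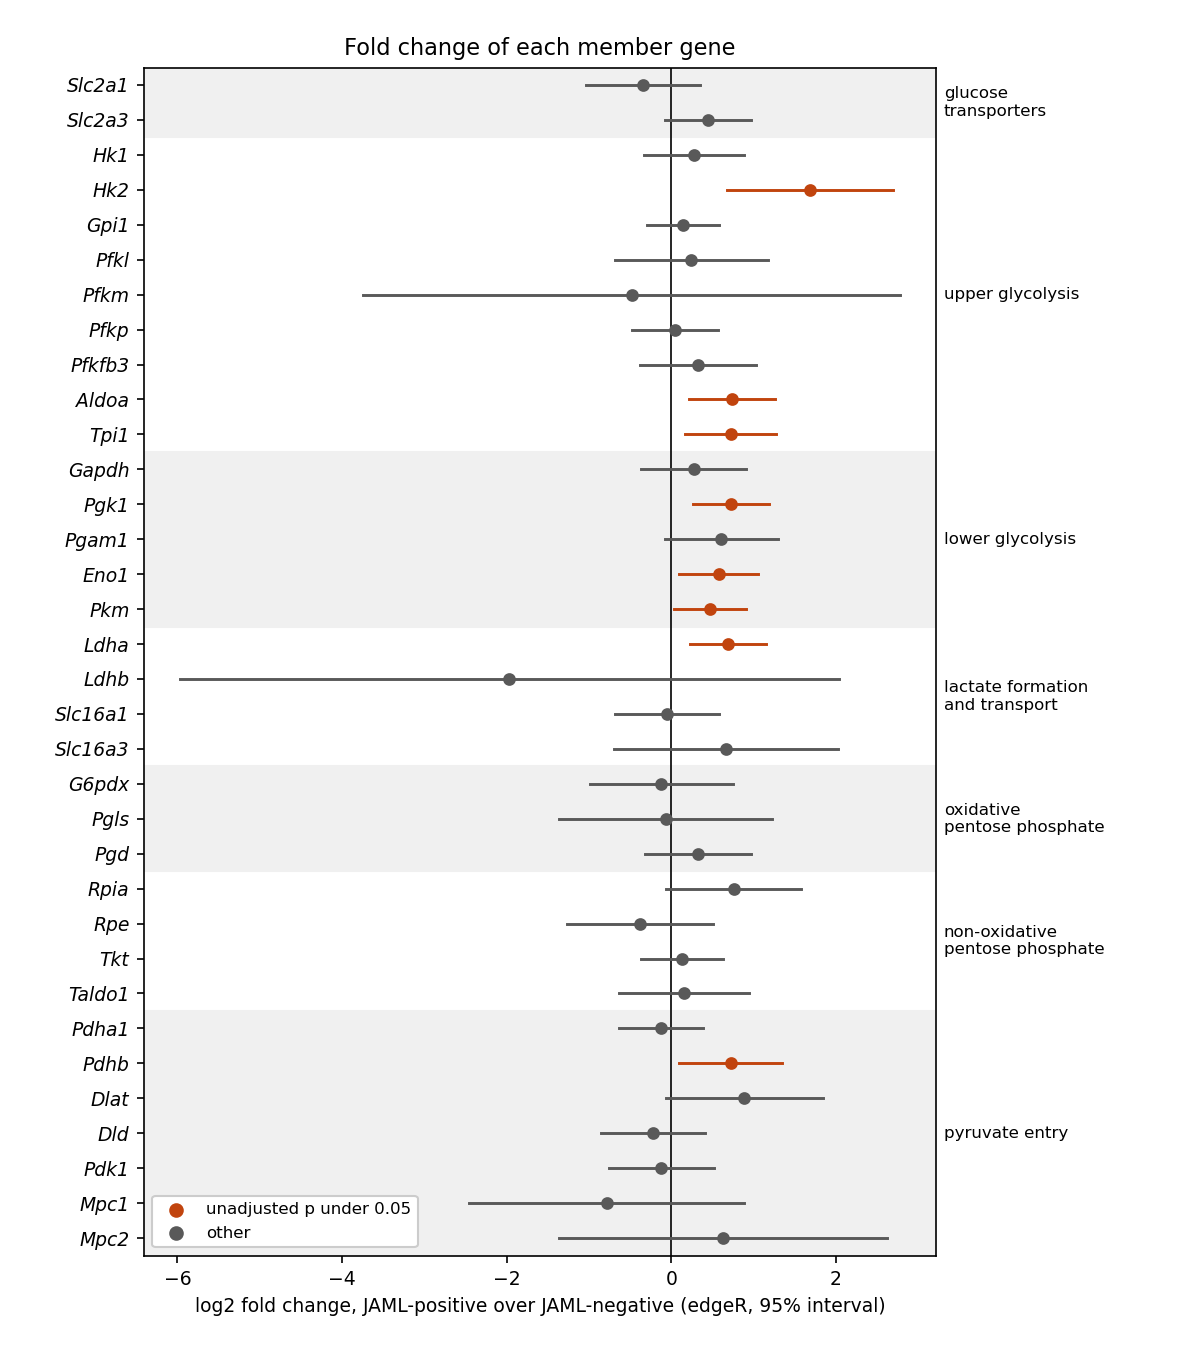
Log2 fold change of each gene, JAML-positive over JAML-negative (horizontal axis), with the 95% interval from edgeR; red marks an unadjusted p under 0.05. The 8 red genes all lie to the right of 0, and the widest intervals belong to Ldhb and Pfkm.

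Some genes were nearly empty in 1 library and present in its replicate. Pfkm, the muscle-type phosphofructokinase, had 268 and 1 counts in libraries A and B of JAML-positive cells and 2 and 363 counts in libraries A and B of JAML-negative cells. Mpc2, the partner of Mpc1, had 817 and 447 counts in JAML-positive cells and 8 and 787 counts in JAML-negative cells. With Ldhb these were 3 of the 34 genes with at most 10 counts in one library and at least 100 in the replicate of the same group, a pattern met by 14.2% of all genes tested. This pattern was looked for after the values were seen. The log2 ratio of Ldha to Ldhb was 8.45 and 14.51 in JAML-positive libraries A and B, against 5.81 and 12.80 in JAML-negative ones (exact permutation p = 0.667). That of Pfkm to Pfkl was -1.96 and -10.27 in JAML-positive libraries, against -8.81 and -2.04 in JAML-negative ones (exact permutation p = 1). That of Mpc2 to Mpc1 was 2.0 and 0.23 in JAML-positive libraries, against -5.60 and 0.55 in JAML-negative ones (exact permutation p = 0.667). In these 3 pairs the replicates of a group lay far apart and the groups overlapped. The ratio of Pfkp to Pfkl also overlapped, at 2.86 and 1.58 in JAML-positive libraries and 2.19 and 2.42 in JAML-negative ones (exact permutation p = 1).

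Ordered by level per longest coding transcript, the same 5 genes led in both groups, in different orders. On the length-scaled TPM scale, Ldha averaged 1028 ± 43.6 TPM in JAML-positive and 703 ± 47.2 in JAML-negative cells (SD, n = 2 each). Aldoa was at 982 ± 142 TPM in JAML-positive and 654 ± 54.2 TPM in JAML-negative cells, and overlapped with Ldha in both groups. Pkm, at 963 ± 5.95 TPM in JAML-positive and 764 ± 11.9 TPM in JAML-negative cells, lay below Ldha in both JAML-positive libraries and above it in both JAML-negative libraries. Pgk1 (778 ± 71.1 TPM in JAML-positive and 513 ± 72.4 TPM in JAML-negative cells) and Eno1 (758 ± 58.6 TPM in JAML-positive and 556 ± 115 TPM in JAML-negative cells) came next and overlapped with each other in both groups. Hk2 was at 25.1 ± 5.40 TPM in JAML-positive and 8.44 ± 1.21 TPM in JAML-negative cells, at rank 5232 of all genes in JAML-positive and rank 8347 in JAML-negative cells. The lowest mean was that of Ldhb in JAML-positive cells (2.08 TPM) and that of Pfkm in JAML-negative cells (5.41 TPM). The order depends on the transcript length used. With the median transcript length of each gene and the mean over the 4 libraries, levels were computed for 26 members only. Among these, Pkm led at 1845 TPM, before Ldha at 1254 TPM, Eno1 at 1097 TPM, Aldoa at 966 TPM and Slc2a3 at 546 TPM. Pgk1 was at 411 TPM. Gpi1 was not among the 26, though its median transcript (581 nucleotides) is much shorter than its longest (2884 nucleotides). Its place in that order is therefore not given. Levels and ranks can also depend on how reads that match several genes were counted. Gapdh averaged 173 TPM in JAML-positive and 156 TPM in JAML-negative cells. Of the 50-base words in its longest coding transcript, 82.5% also occur in transcripts of other genes. The part of such reads in its level, and in the order of the genes, was not tested.

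Many glycolytic genes have processed copies elsewhere in the genome, so their counts depend on how reads with several matches were treated, which the sources used here do not give. Of the 50-base words in the longest coding transcript (GENCODE vM21), 82.5% for Gapdh, 72.2% for Eno1, 68.0% for Pgk1, 41.5% for Pgam1 and 34.4% for Pkm also occur in transcripts of other genes. For Gapdh, 215 of the 218 other genes are annotated pseudogenes. For Aldoa and Ldha the shares were 13.5% and 16.7%, for Tpi1 7.51%, for Pdhb 30.3%, and for Hk2, Slc2a1, Slc2a3 and Rpia 0%. The 12 genes with at least 10% shared words had a median log2 fold change of 0.52, 9 of them without overlap and higher. The other 22 had a median of 0.19, with 6 higher without overlap. The part of such shared sequence in the results was not tested. Exons also overlap an opposite-strand gene of the table in Pfkp (16.7% of its exonic bases, with Pitrm1), Rpe (20.5%, Kansl1l), Pdha1 (18.8%, Map3k15), Mpc1 (12.1%), G6pdx (4.72%), Hk1 (2.51%), Tpi1 (1.93%) and Pfkm (0.539%), and the sources used here do not say whether the counting used strand.

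Short transcripts as a whole had higher values in JAML-positive cells. Among genes with a longest transcript under 2000 nucleotides, the median log2 fold change was 0.63 for the 13 members and 0.22 for all 2927 genes. From 2000 to 4000 nucleotides it was 0.13 for 13 members and 0.03 for 4453 genes. Above 4000 nucleotides it was 0.30 for 8 members, Hk2 among them, and -0.12 for 3733 genes. With trends of length and GC content removed from each library, 22 of the 34 genes were above 0, the median was 0.32, and 8 had an unadjusted p under 0.05, as did 910 of 11563 genes in all. In that fit the log2 fold changes of the short genes were smaller, at 0.55 for Pgk1, 0.51 for Ldha, 0.56 for Tpi1, 0.52 for Pdhb, 0.60 for Rpia and 0.66 for Aldoa, while that of Hk2 was 1.79.

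For each of the 8 genes with an unadjusted p under 0.05, both JAML-positive values exceeded both JAML-negative ones. Leaving out any 1 library could therefore hardly turn their direction, and it did not. That the direction held is thus no added support. Hk2 kept an unadjusted p under 0.05 without any 1 of the 4 libraries, at log2 fold changes of 1.56 to 1.82. Pgk1, Aldoa and Eno1 did so in 3 of the 4 cases, Ldha and Pkm in 2, and Tpi1 and Pdhb in 1. Without JAML-negative replicate A, only 1 of the 34 genes, Hk2, had an unadjusted p under 0.05, as did 706 of 13246 genes in all. Without JAML-positive replicate A, the library with the high ribosomal share, 6 did, against 466 of 12992 genes in all, and the median over the 34 genes was 0.24.

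**Figure D5:**
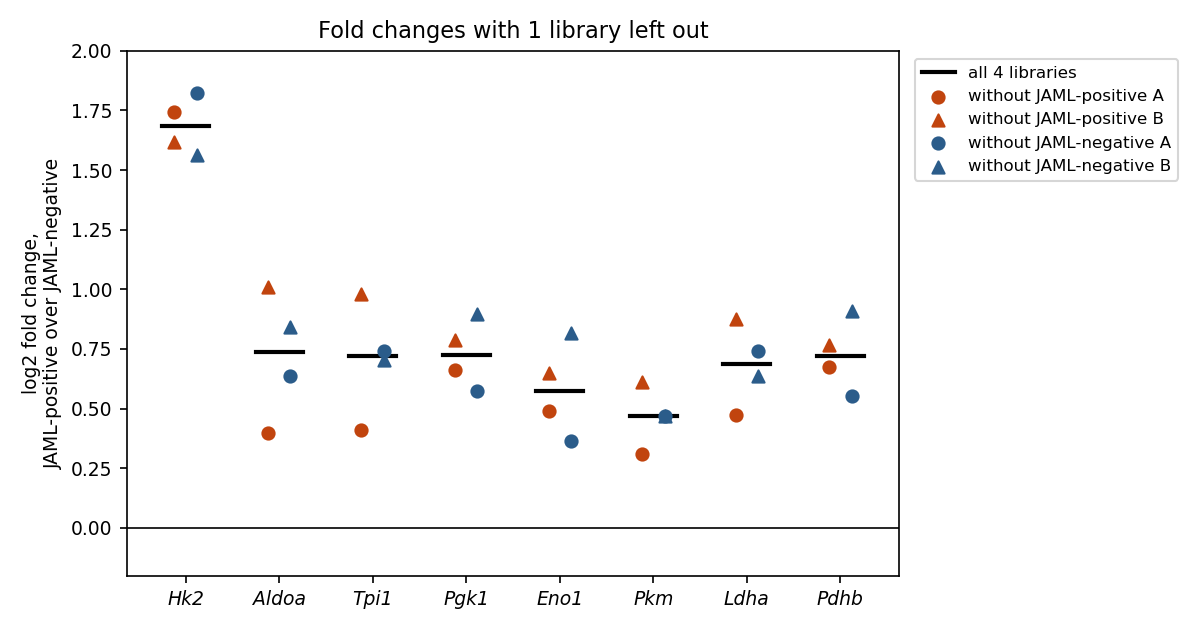
Log2 fold change (vertical axis) of the 8 genes with an unadjusted p under 0.05, with all 4 libraries (black bar) and with 1 library left out (red, a JAML-positive library; blue, a JAML-negative library; circle, replicate A; triangle, replicate B). All values lie above 0, between 0.31 for Pkm and 1.82 for Hk2, in genes whose groups do not overlap.

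Beyond the 34 genes, 49 of 67 related genes of sugar and pyruvate metabolism were in the table and 40 were tested. Of these, 25 had values above 0 and 15 below, with a median log2 fold change of 0.12, and 0 passed after adjustment. An edgeR unadjusted p under 0.05 was reached by 3 higher and 1 lower of the 40 genes, against 4.32% higher and 3.34% lower among all genes tested. Pdp1, the phosphatase that switches the pyruvate dehydrogenase complex on, had 1096 and 460 counts in libraries A and B of JAML-positive cells, against 99 and 131 counts in libraries A and B of JAML-negative cells (2.72, SE 0.92). Shpk, which makes the pentose phosphate intermediate sedoheptulose-7-phosphate, had 395 and 610 counts in JAML-positive cells and 119 and 87 counts in JAML-negative cells (2.23, SE 0.96). Eno1b, a near copy of Eno1 with which reads can be confused, had 351 and 356 counts in JAML-positive cells, against 9 and 13 counts in JAML-negative cells (4.94, SE 1.76). Mlxip, which encodes the glucose-sensing transcription factor MondoA, was the lower one, at 95.9 and 132 CPM in JAML-positive cells, against 216 and 224 CPM in JAML-negative cells (-0.95, SE 0.26). All 4 had an edgeR adjusted p of 0.609. In the authors' deposited annotation, 16 of the 34 genes carry the HIF-1 signalling term, with a median log2 fold change of 0.27. The other 66 tested genes of that term had a median of -0.15, 28 of them above 0. Of the other tested genes of the glycolysis and gluconeogenesis term, 16 of 23 were above 0 (median 0.13), and of those of pyruvate metabolism 20 of 23 (median 0.33). The corresponding counts were 7 of 11 for the pentose phosphate pathway (median 0.19) and 21 of 36 for central carbon metabolism in cancer (median 0.20).

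Markers of proliferation and of some other cell types had higher sums in JAML-positive cells, while those of further cell types overlapped between groups. The 30 cell cycle genes summed to 5954 and 6150 CPM in JAML-positive libraries A and B, against 4247 and 4409 CPM in JAML-negative libraries A and B, with 27 of 30 above 0 and 23 higher without overlap. The 11 markers of dendritic cells and MHC class II summed to 573 and 370 CPM in JAML-positive cells and 230 and 211 CPM in JAML-negative cells, with 8 of 9 tested above 0 and Zbtb46, Xcr1 and Clec9a at 0 in at least 1 library. Itgax and Ccr9 of that list are also known from T cells. Of the B and plasma cell markers, 5 summed to 124 and 84.9 CPM in JAML-positive cells and 10.4 and 18.1 CPM in JAML-negative cells, with 4 of 4 tested above 0 and Cd79a, Ms4a1 and Mzb1 at 0 in at least 1 library. Haemoglobin genes summed to 49.5 and 12.7 CPM in JAML-positive cells and to 0 and 0.0363 CPM in JAML-negative cells. Macrophage and monocyte markers overlapped (908 and 528 CPM in JAML-positive cells, 541 and 700 CPM in JAML-negative cells), as did natural killer, endothelial and hepatocyte markers, and neutrophil markers were at most 0.566 CPM. The 5 CD8 T cell markers in the table summed to 3346 and 2886 CPM in JAML-positive cells and 2856 and 2895 CPM in JAML-negative cells. The 3 helper T cell markers summed to 157 and 207 CPM in JAML-positive cells and 126 and 127 CPM in JAML-negative cells. The part of these markers, and of the ribosomal share of JAML-positive library A, in the higher values of the glycolytic genes was not tested.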

How the data were processed

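RNA of sorted cells was made into libraries with a SMARTER kit, per the labels' protocols. The authors deposited 1 table of raw read counts per gene, and GRCm38 (mm10) is the build named per the submitters' processing notes. Which aligner and counting program were used, and whether strand was used, the sources used here do not give. Low genes were removed with filterByExpr (minimum count 10), and libraries were scaled with TMM factors and tested with edgeR 4.0.16 (R 4.3.3) by the robust quasi-likelihood test, with no covariate and Benjamini-Hochberg adjustment over all genes at 0.05. Each standard error is the size of the log2 fold change over the root of F. DESeq2 1.42.0 and limma 3.58.1 served as alternatives. Levels per length used the longest coding transcript of GENCODE vM21 (GRCm38), with the median transcript length as an alternative. Positions and promoters came from RefSeq, matched by Entrez identifier or symbol. The edgeR fit was tested on simulated data. A total of 3 counts corresponds to 0.0959 to 0.113 CPM, and no molecular identifiers are recorded for the reads. The intervals given are those of the edgeR fit, and no limits of counting error are given. Values in every library are given for genes with an unadjusted p under 0.05, for gene pairs, and for the largest and smallest fold change of each role. Related genes are named where their unadjusted p was under 0.05. Members and lists were chosen with earlier results of these data known. One marker gene is not reported here and was left out of its list's sum.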

Additional observations from a re-analysis of the deposited data

How the results depend on the processing

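With 2 libraries a group, few degrees of freedom limit the test. Each of the other settings except DESeq2 called 0 of the 34 genes. DESeq2 called 8 of the 34 genes and 885 of all genes, edgeR without a filter on low counts called 2 genes in all, and leaving out 1 library gave 0 to 11 genes in all (11 without JAML-positive replicate B) and 1 to 7 of the 34 at an unadjusted p under 0.05 (1 without JAML-negative replicate A). The cause was not tested. In those fits the group with 1 library is assumed to vary like the other. With the replicate block, 7 of the 34 genes had an unadjusted p under 0.05, 23 were above 0, the median was 0.28 and 0 passed after adjustment, so the block changed no call. The deviations of same-lettered libraries were nearly uncorrelated (Pearson r = 0.0176 over 11563 genes, which are not independent). This correlation cannot tell whether a letter marks a shared animal, sort or day, since deviations particular to 1 library also enter it. The median over the 34 genes was 0.24 to 0.42 with a library left out, with 23 to 25 above 0. The median of all genes shifted to 0.13 without JAML-negative replicate A, and relative to it the 34 genes had a median of 0.11, against 0.26 with all libraries. Of 26 genes whose fold change was followed, 19 kept their direction in every setting. The other 7 turned only when a library was left out, with log2 fold changes of -0.16 to 0.28 for Pfkp, -0.28 to 0.21 for Slc16a1, -0.37 to 0.64 for Pfkl, -7.49 to 5.97 for Pfkm, -0.33 to 0.0761 for G6pdx, -10.19 to 4.98 for Ldhb and -0.37 to 6.27 for Mpc2. The differences in log2 ratio that turned were those of Ldha to Ldhb (-1.32 to 5.67), Pfkp to Pfkl (-0.73 to 0.56) and Pfkm to Pfkl (-4.85 to 3.46). The older quasi-likelihood fit of edgeR, added after the data were seen, called 0 genes and left 8 of the 34 at an unadjusted p under 0.05.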
